A study of Mus musculus with 12 samples.

Results

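The genes of protein folding in the endoplasmic reticulum (ER) and of the unfolded protein response were followed in mouse cerebellum with and without Ciz1. A list of 36 genes was matched to the array by gene symbol, and 35 of them had a row that carries their symbol alone, out of 22180 genes tested. The list was drawn up by function, with earlier results of these data known. It holds chaperones and their cofactors, disulfide isomerases, entry into the ER, ER-associated degradation, and the sensors and transcription factors of the response. Pdia4, a disulfide isomerase, shares its only row with the microRNA gene Mir704 and was not analysed here. Ero1l and Ero1lb, oxidases that feed disulfide bonds to the isomerases, are called Ero1a and Ero1b in the annotation.

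Proteins bound for secretion or for membranes fold in the ER, where chaperones such as BiP (the product of Hspa5) hold them and isomerases set their disulfide bonds. When folding falls behind, 3 sensors in the ER membrane respond. ATF6 is cut and its free part acts as a transcription factor. IRE1 (Ern1) splices the Xbp1 message so that it encodes an active factor, and PERK (Eif2ak3) slows translation while raising ATF4. Together these raise the chaperones, the degradation machinery and, under lasting load, CHOP (Ddit3). In neurons and glia these genes are always on, since both cell types make many membrane and secreted proteins.

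Total RNA of whole cerebellum was hybridised to 12 Affymetrix whole-transcript arrays, 1 per mouse. The groups were Ciz1-/- females (KO_female), wild-type females (WT_female), Ciz1-/- males (KO_male) and wild-type males (WT_male), with 3 mice each, matched on age and sex and with no treatment named. The knockout is a germline deficiency, and no source used here gives how the allele was made. Mice were 10 months old by the extraction protocol and 6 to 10 months by the design text. Controls are wild type by their source names and Ciz1+/+ by the protocol, although 1 label field calls them Ciz1+/-. Replicate numbers only name a mouse.

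Levels are log2 of the deposited intensity, and a difference is KO minus WT on that scale unless stated. Tests came from limma with Benjamini-Hochberg adjustment over all 22180 genes, with a threshold of 0.05. A level of 1 gene is not set against that of another, because each probe set has its own response. In bulk tissue, fewer cells of a type and less RNA per cell cannot be told apart.

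Ciz1 was at 7.31, 7.17 and 7.09 in KO females, 8.90, 8.70 and 8.80 in WT females, 7.26, 6.82 and 7.10 in KO males and 8.73 in each of the 3 WT males. Every KO mouse lay below every WT mouse, with a difference of -1.64 (SE 0.07, limma adjusted p = 1.42e-06). The KO means, 7.19 in females and 7.06 in males, were not at the bottom of the scale, and it is not known here whether the Ciz1 probes fall inside the changed stretch, so these values check the labels and do not measure how much transcript is left. On the first principal component of all genes, which held 16% of the variance, KO females lay at 10.72 to 16.01, against -12.18 to 3.54 in the other 9 arrays. A result that separates KO females from all other mice therefore moves with that component, and its part in the results below was not tested. Of the 35 ER genes, 32 were brighter on average than the median gene (6.97), and their means ran from 6.60 to 11.90. The 3 dimmer ones were Sec61b, Derl3 and Trib3, all above the 3.95 to 5.39 of 3 Y-linked genes in female arrays. The SD within a group had a median of 0.07 over the ER genes and of 0.11 over all genes.

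In females, the ER genes lay higher in KO than in WT cerebellum more often than genes at large. Sdf2l1, a subunit of a BiP-associated folding complex, was the 1 ER gene past the adjusted threshold in KO against WT females, where 0.0225% of all genes passed. At an unadjusted p under 0.05, 16 of the 35 were higher and 0 lower in KO females, against 4.52% of all genes higher and 3.98% lower. The median difference was 0.14 over the ER genes, and 0.002 over all genes. In males, 0 ER genes passed the adjusted threshold, where 0.0225% of all genes did. At an unadjusted p under 0.05, 1 was higher (Ddit3) and 0 lower in KO males, against 5.42% of all genes in either direction, with a median difference of 0.03.

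Over both sexes 0 ER genes passed the adjusted threshold in the limma fit, where 0.0225% of all genes did. At an unadjusted p under 0.05, 14 were higher, against 4.38% of all genes, and 1 was lower (Dnajb9, a BiP cofactor), against 4.87%. Of the 35, 27 had a positive difference and 8 a negative one, and the median was 0.08. The members and lists were picked with earlier results of these data known, so these shares describe the list and were not tested against other genes.

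**Figure D1:**
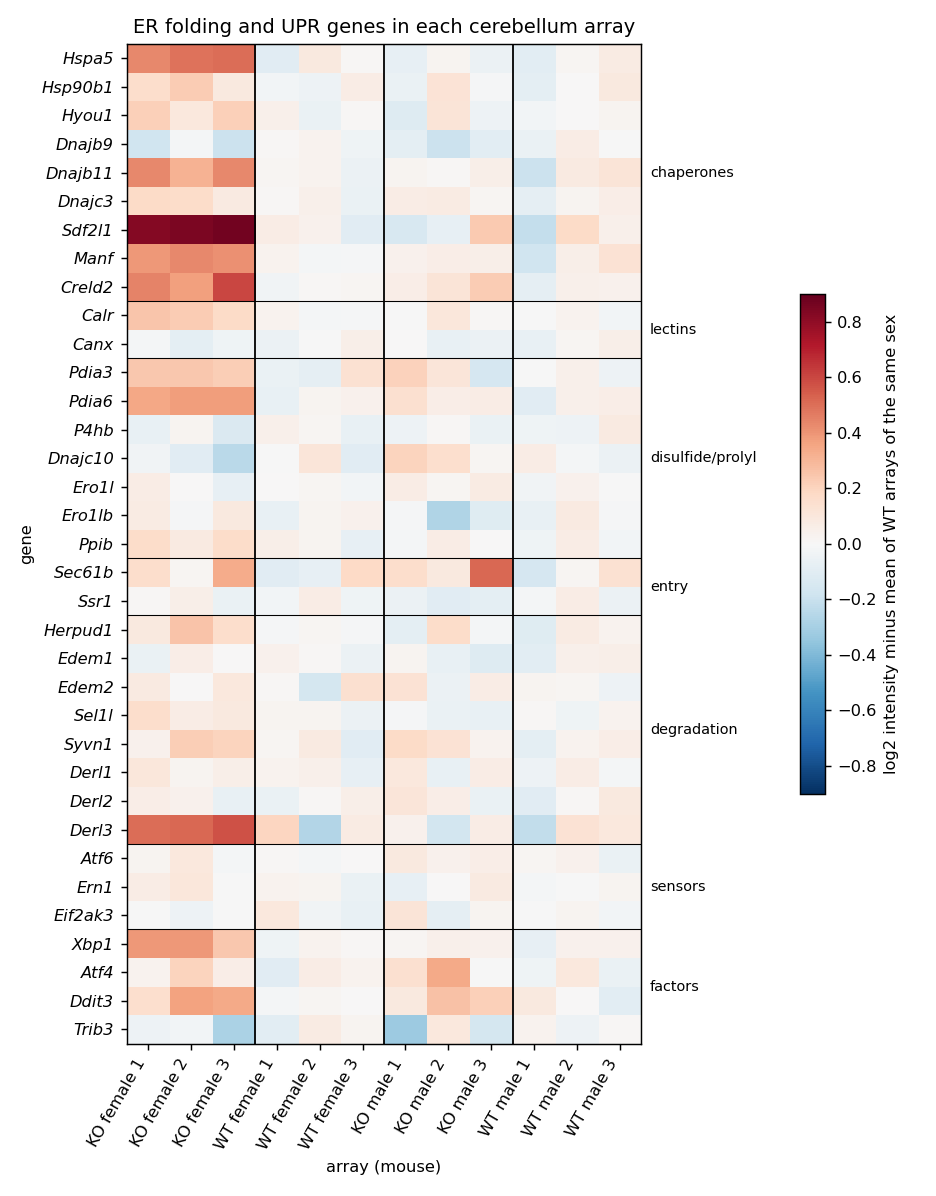
Each cell shows log2 intensity in 1 array minus the mean of the WT arrays of the same sex (columns, KO left of WT within each sex; rows, 35 genes by role). The 3 KO_female columns are red for Sdf2l1, Hspa5, Creld2, Manf, Dnajb11, Pdia6, Derl3 and Xbp1, and lighter red for Calr, Hsp90b1, Hyou1 and Dnajc3. KO_male columns are pale in most rows, with single deeper cells such as Sec61b in replicate 3 and Atf4 in replicate 2. The sensors are pale in every column.

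The promoters of these genes are the place where the ER sensors' output is read, so they are shown before the levels. The ER stress response element (ERSE; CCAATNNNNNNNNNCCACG) is bound by ATF6 and XBP1 together with the factor NF-Y, and ERSE-II (ATTGG, any base, CCACG) is its compact form. Both were sought as exact letters on both strands in RefSeq promoter windows of assembly GRCm38.p6, from 250 bases before to 50 after each start, and none of the matches in the ER genes overlapped another. ERSE occurred in 10 of the 32 listed genes with a window and in 39 of 32851 promoters overall (0.119%). ERSE-II occurred in 2 of the 32 and in 12 promoters overall (0.0365%). These shares describe a list drawn up by function and were not tested. The listed genes are counted by gene and the overall share by window, with the windows of the listed genes included. Hyou1, Manf, Derl1 and Atf6 were not in the promoter table. The matches are printed here in full because the 9-base spacer differs between genes while the ends are fixed. Capitals mark the fixed letters and lower case the spacer, each on the strand on which it matched.

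Hspa5 ERSE (chr2:34772025-34772043, plus strand): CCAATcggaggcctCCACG
Hsp90b1 ERSE (chr10:86705638-86705656, minus strand): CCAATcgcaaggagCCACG
Hsp90b1 ERSE (chr10:86705533-86705551, plus strand): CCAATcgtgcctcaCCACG
Dnajb11 ERSE-II (chr16:22857852-22857862, plus strand): ATTGGcCCACG
Dnajc3 ERSE (chr14:118937827-118937845, plus strand): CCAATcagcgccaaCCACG
Creld2 ERSE (chr15:88819520-88819538, minus strand): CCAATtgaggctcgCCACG
Calr ERSE (chr8:84847075-84847093, plus strand): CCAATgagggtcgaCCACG
Canx ERSE (chr11:50325800-50325818, minus strand): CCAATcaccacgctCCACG
Pdia6 ERSE (chr12:17266491-17266509, plus strand): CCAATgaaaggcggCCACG
Ero1lb ERSE (chr13:12565682-12565700, minus strand): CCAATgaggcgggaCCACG
Herpud1 ERSE-II (chr8:94386377-94386387, plus strand): ATTGGgCCACG
Syvn1 ERSE (chr19:6046532-6046550, plus strand): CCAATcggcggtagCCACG
Derl3 ERSE (chr10:75893242-75893260, minus strand): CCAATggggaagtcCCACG

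Hsp90b1 carried ERSE at 2 places, and the spacers of the 11 ERSE matches were all different. The UPRE core (TGACGTG), which XBP1 can bind, was in 2.01% of all promoters and in 1 ER gene, Hspa5. The amino acid response core (TGATGNAA), read by ATF4 and CHOP complexes, was in 3.97% of all promoters and in Herpud1 and Trib3. Of the 10 ERSE genes, 7 were higher in KO females at an unadjusted p under 0.05, against 4.52% of all genes. Their median difference was 0.18, with a range of -0.05 to 0.53. Of the 21 tested genes with a window but no ERSE, 7 were higher, with a median of 0.06 and a range of -0.13 to 0.85. Those 7 include Dnajb11 and Herpud1, which hold ERSE-II. The genes with and without the element overlapped over most of this range, and a match is not evidence that a factor sits there.

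**Figure D2:**
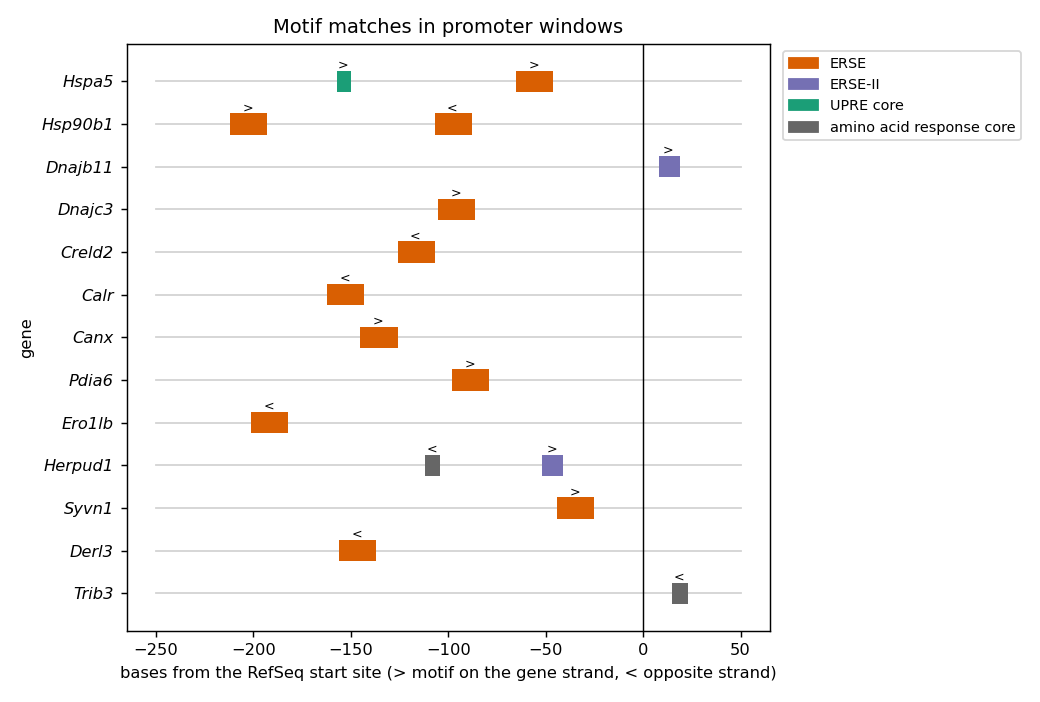
Matches to 4 motifs in the promoter windows of the ER genes that hold at least 1 (horizontal axis, bases from the RefSeq start site; arrowheads, strand of the match relative to the gene). In Hspa5 the ERSE lies at positions -65 to -47 from the start and the UPRE core at -157 to -151.

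Hspa5 and Sdf2l1 are shown whole because they were the chaperone at the centre of the response and the 1 gene past the threshold. In Hspa5, capitals mark its UPRE core and its ERSE with the spacer, and Sdf2l1 holds none of the 4 motifs as spelled.

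Hspa5 window (chr2:34771840-34772139, plus strand): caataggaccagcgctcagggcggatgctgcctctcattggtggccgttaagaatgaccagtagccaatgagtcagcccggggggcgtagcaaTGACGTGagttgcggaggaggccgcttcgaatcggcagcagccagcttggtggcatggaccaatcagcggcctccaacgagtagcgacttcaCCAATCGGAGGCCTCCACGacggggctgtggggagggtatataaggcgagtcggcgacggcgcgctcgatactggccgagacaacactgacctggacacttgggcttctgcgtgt
Sdf2l1 window (chr16:17132334-17132633, minus strand): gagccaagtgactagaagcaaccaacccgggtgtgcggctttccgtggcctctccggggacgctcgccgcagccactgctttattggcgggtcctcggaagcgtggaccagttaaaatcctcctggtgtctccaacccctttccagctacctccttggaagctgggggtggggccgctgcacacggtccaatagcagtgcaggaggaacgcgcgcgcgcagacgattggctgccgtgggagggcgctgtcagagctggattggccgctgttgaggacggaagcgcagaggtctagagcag

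Of the 9 chaperones and cofactors, 8 were higher in KO females at an unadjusted p under 0.05, against 4.52% of all genes. The median difference of the 9 was 0.39. Sdf2l1 was at 9.34, 9.36 and 9.38 in KO females, against 8.58, 8.55 and 8.41 in WT females. In males it was at 8.33, 8.40 and 8.71 in KO, against 8.26, 8.65 and 8.52 in WT. The 3 KO females lay above all other mice and within 0.04 of each other, whereas the male groups overlapped. Sdf2l1 rose by 0.85 in KO against WT females (SE 0.11, 95% interval 0.61 to 1.09, limma adjusted p = 0.0321), a 1.80-fold higher intensity, and had rank 5 among all genes by p in that comparison. In males its difference was 0.01 (95% interval -0.24 to 0.25). Leaving out any 1 of the 6 female arrays, or KO_male replicate 2 or WT_male replicate 3, took its adjusted p in females above the threshold, to between 0.0588 and 0.184, while the difference stayed between 0.79 and 0.88.

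Hspa5 encodes BiP, the main Hsp70 chaperone of the ER and a brake on all 3 sensors. It was at 8.75, 8.81 and 8.82 in KO females, against 8.22, 8.41 and 8.33 in WT females. In males it was at 8.35, 8.45 and 8.37 in KO, against 8.33, 8.44 and 8.50 in WT. KO females again lay above all other mice, and the KO males lay within the range of the WT males. The difference was 0.47 in females (SE 0.07, limma adjusted p = 0.0626), which missed the threshold although it had rank 6 among all genes, and -0.03 in males (95% interval -0.18 to 0.12).

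Creld2, a secreted ER protein and known target of the response, was at 8.83, 8.75 and 8.98 in KO females, against 8.35, 8.39 and 8.40 in WT females. In males it was at 8.42, 8.48 and 8.59 in KO, against 8.28, 8.41 and 8.40 in WT. Creld2 was the 1 ER gene for which all 6 KO mice lay above all 6 WT mice, where 0.32% of all genes did so. The margin was narrow, between KO_male replicate 1 at 8.42 and WT_male replicate 2 at 8.41. Its difference was 0.47 in females (SE 0.07, limma adjusted p = 0.0786) and 0.13 in males (adjusted p = 0.923).

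Manf, a small ER protein that is secreted under stress and protects neurons, was at 7.78, 7.82 and 7.80 in KO females, against 7.42, 7.37 and 7.38 in WT females. In males it was at 7.35, 7.37 and 7.36 in KO, against 7.13, 7.36 and 7.44 in WT, where the first WT male was the low one. KO females lay above all others, and the difference in females was 0.41 (SE 0.07, limma adjusted p = 0.135). Without WT_male replicate 1 that adjusted p was 0.0333, and the male difference of 0.05 turned to -0.04.

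Dnajb11, a J-domain cofactor that loads unfolded proteins on BiP, was at 9.13, 9.01 and 9.13 in KO females, against 8.72, 8.73 and 8.65 in WT females. Male values were 8.72, 8.71 and 8.75 in KO, against 8.50, 8.78 and 8.81 in WT. The difference in females was 0.39 (SE 0.08, limma adjusted p = 0.229), with KO females above all other mice. In males it was 0.03, and -0.07 without the low WT_male replicate 1. The remaining chaperones differed less in females: 0.17 for Hyou1, a nucleotide exchange factor of BiP, 0.15 for Hsp90b1, the ER Hsp90, and 0.14 for Dnajc3, a J-domain cofactor. Dnajb9, a cofactor that holds IRE1 inactive, had a difference of -0.13 in each sex, with KO males all below WT males (9.87, 9.76 and 9.86 in KO, against 9.90, 10.02 and 9.95 in WT).

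**Figure D3:**
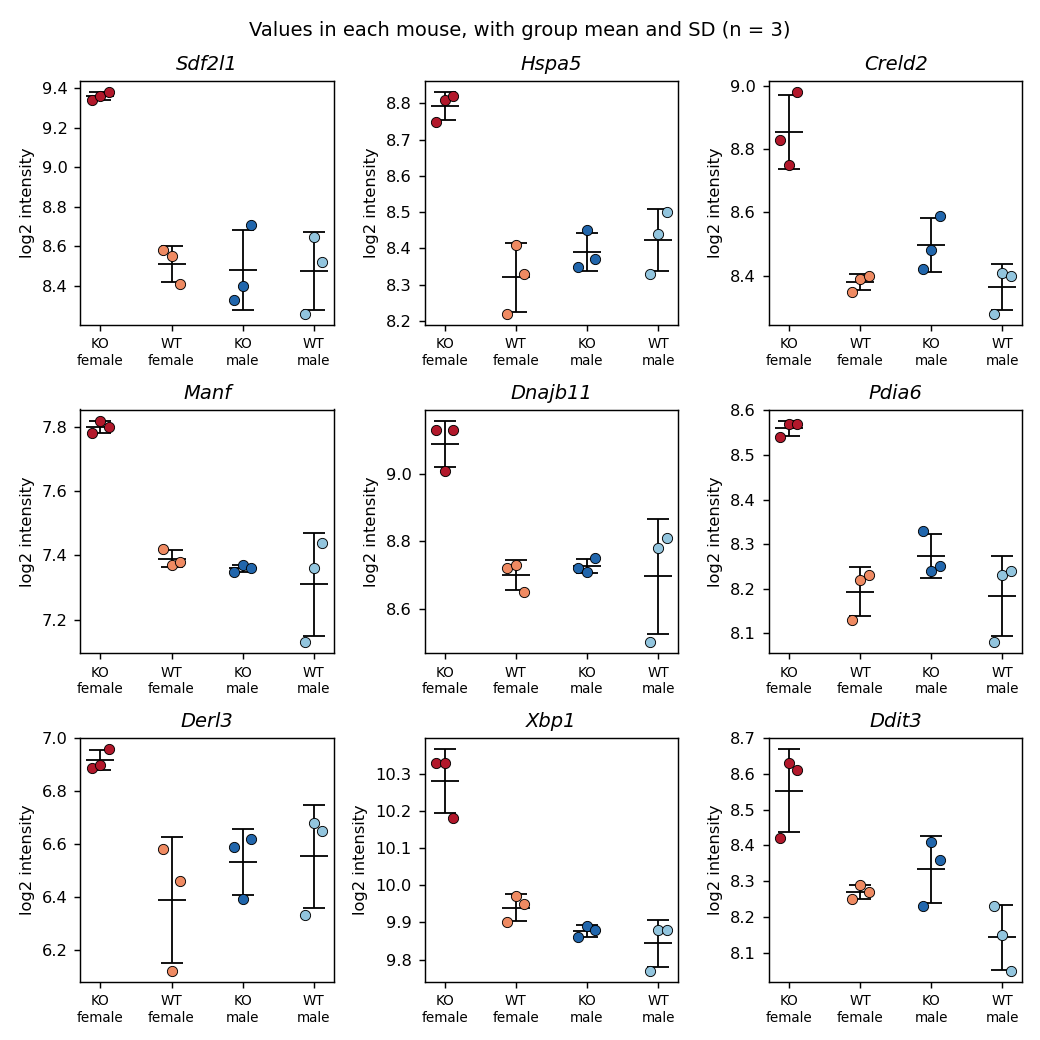
Log2 intensity of 9 ER genes in each of the 12 mice (dots), with group means and SD (n = 3); groups run KO_female, WT_female, KO_male, WT_male. For Sdf2l1, Hspa5, Creld2, Manf, Dnajb11, Pdia6, Derl3, Xbp1 and Ddit3, the 3 KO_female dots lie above every other dot. These genes were picked after their values were seen, and 1.44% of all genes show the same separation. For Ddit3 the lowest KO female (8.42) is barely above KO_male replicate 2 (8.41).

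Of the 2 lectin chaperones, which hold glycoproteins while they fold, Calr was at 11.43, 11.41 and 11.35 in KO females, against 11.21, 11.16 and 11.17 in WT females. All 3 KO females lay above the other 9 mice, and the difference was 0.22 (SE 0.06, limma adjusted p = 0.365). Its membrane-bound counterpart Canx had a difference of -0.05 in females and -0.04 in males, with overlapping groups.

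Of the 7 oxidoreductases and isomerases tested, 3 were higher in KO females at an unadjusted p under 0.05, against 4.52% of all genes. Pdia6, which also acts on IRE1 and PERK, was at 8.54, 8.57 and 8.57 in KO females, against 8.13, 8.22 and 8.23 in WT females. Males had 8.33, 8.24 and 8.25 in KO, against 8.08, 8.23 and 8.24 in WT. KO females lay above all others, and the difference in females was 0.37 (SE 0.06, limma adjusted p = 0.0953). Pdia3, the partner of Calr and Canx, differed by 0.23, and Ppib, a prolyl isomerase, by 0.14. The classical isomerase P4hb (-0.06), Dnajc10, a disulfide reductase of the degradation path (-0.13), and the oxidases Ero1l and Ero1lb (-0.00 and 0.05) had 95% intervals that held 0.

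Neither of the 2 genes of entry into the ER passed any threshold in females. Sec61b, a subunit of the channel, differed by 0.17 in females and 0.26 in males, and by 0.21 over both sexes (SE 0.09, limma adjusted p = 0.517). Ssr1, a subunit of the complex beside the channel, differed by 0.01 in females and -0.08 in males. Its sign over both sexes depended on the rows used: -0.04 for the brighter row and 0.018 for the mean of its rows.

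Of the 8 degradation genes, 2 were higher in KO females at an unadjusted p under 0.05, against 4.52% of all genes. Derl3, a Derlin of the channel that passes misfolded proteins out of the ER, was at 6.89, 6.90 and 6.96 in KO females, against 6.58, 6.12 and 6.46 in WT females. The males lay at 6.59, 6.39 and 6.62 in KO, against 6.33, 6.68 and 6.65 in WT. The difference in females was 0.53 (SE 0.12, limma adjusted p = 0.276), with KO females above all other mice. Herpud1, a scaffold of the degradation complex, differed by 0.17, and its KO females were above WT females but not above all males. Sel1l and Syvn1, the core ligase pair, differed by 0.11 and 0.15. The mannosidase-like Edem1 and Edem2 and the widely used Derl1 and Derl2 had differences of -0.00 to 0.06 in females.

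The messages of the 3 sensors differed little. Atf6, Ern1 and Eif2ak3 differed by 0.03, 0.06 and -0.02 in females and by 0.06, 0.00 and 0.02 in males, and 0 of the 3 passed the unadjusted threshold in either sex or over both. The widest 95% interval in females, that of Eif2ak3, ran from -0.16 to 0.13. KO males lay above WT males for Atf6, by a margin smaller than the rounding (9.12, 9.07 and 9.09 in KO, against 9.05, 9.07 and 8.97 in WT). The sensors are switched by cleavage, splicing and phosphorylation, which these intensities do not measure.

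Of the 4 transcription factors and partners, Xbp1 and Ddit3 were higher in KO females at an unadjusted p under 0.05, against 4.52% of all genes. Xbp1 was at 10.33, 10.33 and 10.18 in KO females, against 9.90, 9.97 and 9.95 in WT females. Male levels were 9.86, 9.89 and 9.88 in KO, against 9.77, 9.88 and 9.88 in WT. KO females lay above all others, and the difference in females was 0.34 (SE 0.06, limma adjusted p = 0.143). The row reads total Xbp1 message, not its spliced form.

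Ddit3, which encodes the stress factor CHOP, was at 8.42, 8.63 and 8.61 in KO females, against 8.25, 8.29 and 8.27 in WT females. Male values were 8.23, 8.41 and 8.36 in KO, against 8.23, 8.15 and 8.05 in WT. In each sex all KO mice lay above the WT mice, in males by less than the rounding of the values, with a difference of 0.28 in females (limma adjusted p = 0.404) and 0.19 in males (adjusted p = 0.874). Atf4, the factor above CHOP, differed by 0.10 in females and 0.16 in males, and Trib3, a target and inhibitor of the ATF4 and CHOP arm, by -0.12 and -0.13. Neither passed the unadjusted threshold.

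**Figure D4:**
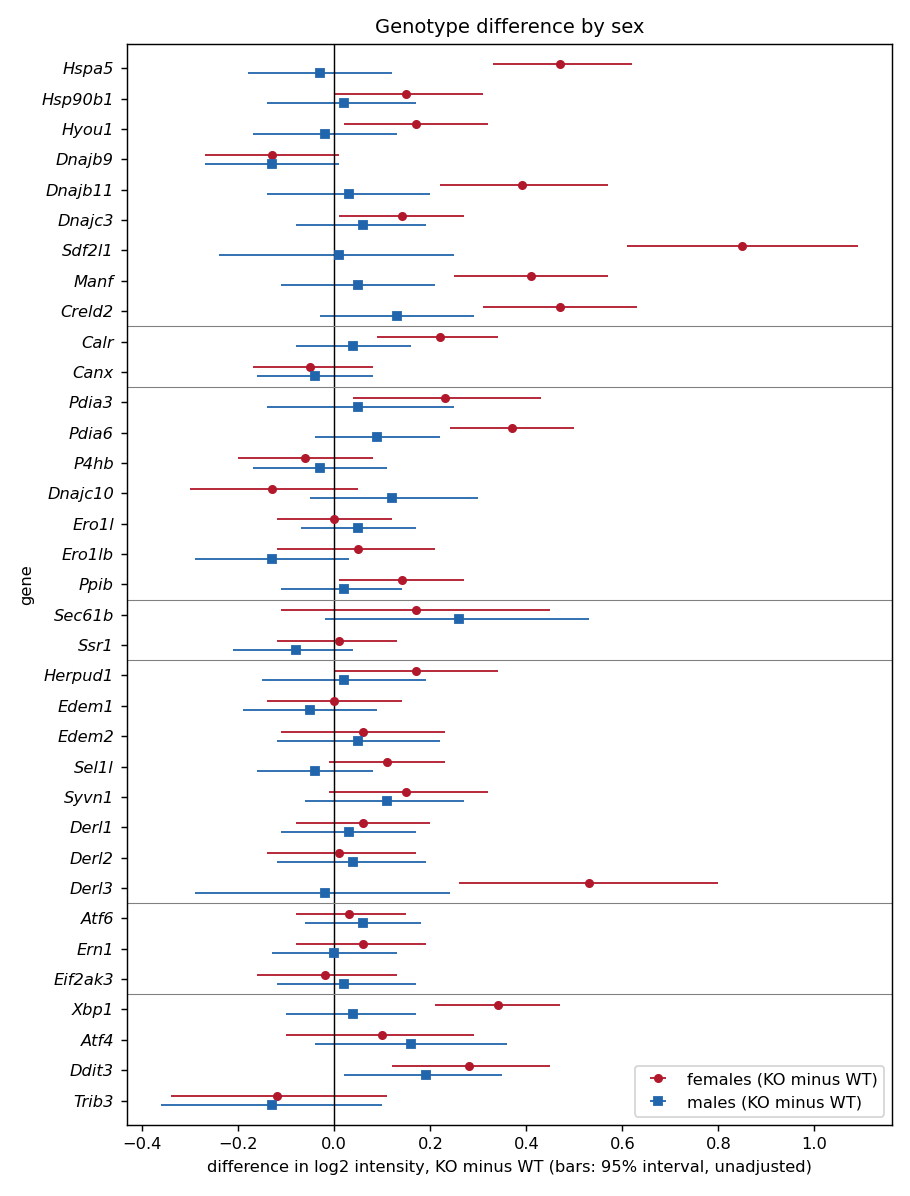
KO minus WT in log2 intensity for each ER gene in females (circles) and in males (squares), with unadjusted 95% intervals; genes run down the page by role. Female intervals lie right of 0 for most chaperones, Calr, Pdia6, Derl3, Xbp1 and Ddit3, while 1 male interval, that of Ddit3, leaves out 0.

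Counts of groups that do not overlap need no test, but they come from the same values as the fits and are not separate support. KO females lay wholly above WT females for 17 of the 35 ER genes, where 7.46% of all genes did, and wholly below for 0, where 7.41% did. They lay above all other 9 mice for 12, where 1.44% of all genes did: Hspa5, Dnajb11, Dnajc3, Sdf2l1, Manf, Creld2, Calr, Pdia3, Pdia6, Derl3, Xbp1 and Ddit3. KO males lay wholly above WT males for 3 genes (Creld2, Atf6 and Ddit3), where 4.66% of all genes did, and wholly below for 2 (Dnajb9 and Ssr1), where 5.64% did.

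Whether the genotype difference itself differed between the sexes was tested as the female minus the male difference. In the limma fit 0 of the 35 ER genes passed the adjusted threshold, as did 0% of all genes. At an unadjusted p under 0.05, 9 were higher and 1 lower, against 4.82% of all genes in either direction. The largest were Sdf2l1 at 0.84 (95% interval 0.50 to 1.19, limma adjusted p = 0.528) and Derl3 at 0.55 (adjusted p = 0.99). Hspa5 followed at 0.50 (95% interval 0.29 to 0.71, adjusted p = 0.532). Dnajb11 and Manf had 0.36, Creld2 0.34, Xbp1 0.30, Pdia6 0.28 and Calr 0.18, and the 1 on the other side was Dnajc10 at -0.25.

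The sexes were also compared within each genotype. In KO mice, Sdf2l1 was higher in females by 0.88 (SE 0.11, limma adjusted p = 0.0142), the 1 ER gene past the threshold, where 0.0496% of all genes passed. Without any 1 KO female, or KO_male replicate 1 or 2, that adjusted p lay between 0.0709 and 0.0956. At an unadjusted p under 0.05, 12 ER genes were higher in KO females than in KO males, against 3.78% of all genes, and 1 was lower (Dnajc10, -0.19), against 3.42%. Manf differed by 0.44 (adjusted p = 0.084), Xbp1 by 0.40 (adjusted p = 0.0561) and Hspa5 by 0.40 (adjusted p = 0.0986). In WT mice 0 ER genes passed, where 0.0225% of all genes did, and 1 reached an unadjusted p under 0.05, against 5.06% of all genes. That gene was Ero1lb, at -0.17.

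The ER genes were asked whether they vary together from mouse to mouse within a group. With group means removed, 24 of 34 correlated positively with Hspa5 over the 12 arrays, as did 11278 of 22179 among all genes. The median Pearson r was 0.17, against 0.01 over all genes. In an exact permutation within groups, Herpud1 had r = 0.64 (p = 0.0177, adjusted p = 0.601 over 34 relations) and Spearman rho = 0.74 (p = 0.00772). Without the 2 arrays farthest from the median of Hspa5, WT_male replicate 1 and WT_female replicate 1, its r was 0.63. Pdia6 had r = 0.63 over the 12 arrays (permutation p = 0.141) and 0.15 without those 2. On the negative side, Eif2ak3 had r = -0.64 (permutation p = 0.064) and Edem2 r = -0.55 (permutation p = 0.18). No relation passed the adjustment.

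Further ER pathway genes were taken as 7 lists, of which 110 of 115 genes were tested. Of these, 0 passed the adjusted threshold over both sexes, in females or in males in the limma fit, where 0.0225% of all genes did in each. At an unadjusted p under 0.05, 4.52% of all genes were higher and 3.98% lower in females. For ER entry and signal peptide removal, 0 of 17 reached an unadjusted p under 0.05 in females, and the median difference was 0.01. Over both sexes Sec11c, of the signal peptidase, had 0.14, Sec62 had -0.06 and Ssr4 had 0.07. For N-glycosylation, 2 of 16 were higher in females and 0 lower, with a median of 0.09; over both sexes Krtcap2 and Ostc, of the oligosaccharyltransferase, and Alg5, which makes a sugar donor, each had 0.12. For other foldases, 3 of 18 were higher and 2 lower, with a median of 0.04, among them Creld1 at 0.22 and Sil1, an exchange factor of BiP, at -0.18. Fkbp7, a prolyl isomerase, had 0.15 over both sexes.

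For ER exit and retrieval, 3 of 15 were higher in females, against 4.52% of all genes higher and 3.98% lower. These were Surf4, a cargo receptor, at 0.15, Kdelr2, which returns chaperones to the ER, at 0.18, and Sar1b, the coat GTPase, at 0.19. For other degradation genes, 0 of 17 reached the unadjusted threshold in females. Over both sexes Ufd1l had 0.12, and Vcp, the ATPase that pulls proteins out of the ER, and its adaptor Ubxn4 each had -0.09. For other sensors and factors, 2 of 12 were higher in females and 1 lower: Creb3, a membrane-bound factor, had 0.26 and Mbtps2, the protease that releases ATF6, had -0.18. Wfs1, an ER calcium regulator, had 0.11 over both sexes.

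Of 15 targets of ATF4 and CHOP, 0 were higher and 1 lower in KO females at an unadjusted p under 0.05. Among all genes, 4.52% were higher and 3.98% lower. The median difference was -0.11 in females, with 3 positive and 12 negative, 0.01 in males, with 8 positive and 7 negative, and -0.03 over both sexes. Psat1, of serine synthesis, had -0.45 in females and -0.34 over both sexes (SE 0.06, limma adjusted p = 0.141). Atf3, a stress factor, had -0.20 over both sexes, and Slc7a11, the cystine transporter, also -0.20.

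Markers of other cells of the cerebellum were read beside these results. Oligodendrocyte markers were lower in KO mice, with the larger median difference in females. Over both sexes, all 11 tested were lower in KO at an unadjusted p under 0.05, against 4.87% of all genes. Opalin fell by 0.45 (limma adjusted p = 0.0369), with Mal at -0.36 and Cldn11 at -0.28. In females 9 were lower, against 3.98% of all genes, Opalin fell by 0.72 (limma adjusted p = 0.0144), and the median was -0.36. In males 10 of the 11 had a negative difference, with a median of -0.17. There 0 reached the unadjusted threshold, where 5.42% of all genes did in either direction. Their mean level was 8.83, 8.78 and 8.87 in KO females, 9.28, 9.16 and 9.19 in WT females, 9.22, 8.85 and 9.07 in KO males and 9.10, 9.25 and 9.29 in WT males. Their summed intensity ran from 5672 to 6124 in KO females, 7315 to 7956 in WT females, 5847 to 7548 in KO males and 6875 to 7956 in WT males. None was near 0, the lowest being 6.74 on the log2 scale. KO_male replicate 2 had a marker mean of 8.85, within the range of KO females, while its Sdf2l1 was 8.40 and its Hspa5 8.45, within the range of the other males. Its Hsp90b1 (10.39), Hyou1 (8.59), Herpud1 (9.57) and Ppib (11.11) lay within the range of KO females. The rest of the 16 ER genes called higher in KO females lay below that range in this mouse. Among them, its Calr (11.28) and Ddit3 (8.41) lay above every other mouse outside KO females. What links these levels was not tested.

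Choroid plexus, the tissue that makes cerebrospinal fluid and lies beside the cerebellum, also differed in amount between samples. All 9 of its markers were lower on average in KO over both sexes, with a median of -0.28 and 0 past the adjusted threshold. At an unadjusted p under 0.05, 1 of the 9 was lower (Folr1, -0.36), against 4.87% of all genes. Otx2 had -0.28 and Kcne2 -0.25. Their summed intensity ran from 1066 to 10687 in KO females, 1436 to 12579 in WT females, 1642 to 9016 in KO males and 3364 to 12962 in WT males, and the lowest marker was at 6.14. Ttr, the most abundant transcript of that tissue, was at 7.59, 13.11 and 10.80 in KO females, while Sdf2l1 in the same mice was at 9.34, 9.36 and 9.38.

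With the mean of the choroid plexus markers as a covariate, the female difference of Sdf2l1 was 0.81 (limma adjusted p = 0.0788) and that of Hspa5 0.49 (adjusted p = 0.105). With the mean of the oligodendrocyte markers, a covariate chosen after seeing the data, they were 0.97 (adjusted p = 0.503) and 0.43 (adjusted p = 0.611). The sizes without a covariate were 0.85 and 0.47, and the adjusted p passed the threshold in neither fit. The oligodendrocyte mean itself split the female groups, at 8.78 to 8.87 in KO and 9.16 to 9.28 in WT. With it as a covariate, the fit cannot separate genotype from marker level in females. Beyond these fits, the part of either tissue in the ER gene differences was not tested. Creld2, Manf, Pdia6 and Xbp1 had 0.45, 0.39, 0.36 and 0.34 with the first covariate and 0.52, 0.53, 0.47 and 0.32 with the second. Of the 16 genes higher in KO females, 5 had a difference over 1.5 times smaller with the oligodendrocyte covariate. These were Hsp90b1 at 0.064 (0.15 without it), Hyou1 at 0.071 (0.17), Herpud1 at 0.037 (0.17), Calr at 0.13 (0.22) and Ddit3 at 0.093 (0.28). Derl3 was over 1.5 times larger, at 0.92 (0.53 without it), and the choroid plexus covariate moved 0 of the 16 by that much. Outside the 16, female differences with the oligodendrocyte covariate moved both ways. Trib3 had -0.51 (-0.12 without it) and Ero1lb 0.26 (0.047), while Dnajb9 had -0.055 (-0.13). Other lists had medians between -0.09 and 0.08 in females: astrocyte -0.09, microglia 0.03, vascular and meningeal 0.08, Purkinje cell 0.05, granule cell -0.03 and interneuron 0.06. Aqp4 and Slc1a2 of the astrocyte list were lower over both sexes at an unadjusted p under 0.05 (-0.17 and -0.10), and Etv1 of the granule cell list was higher (0.15).

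**Figure D5:**
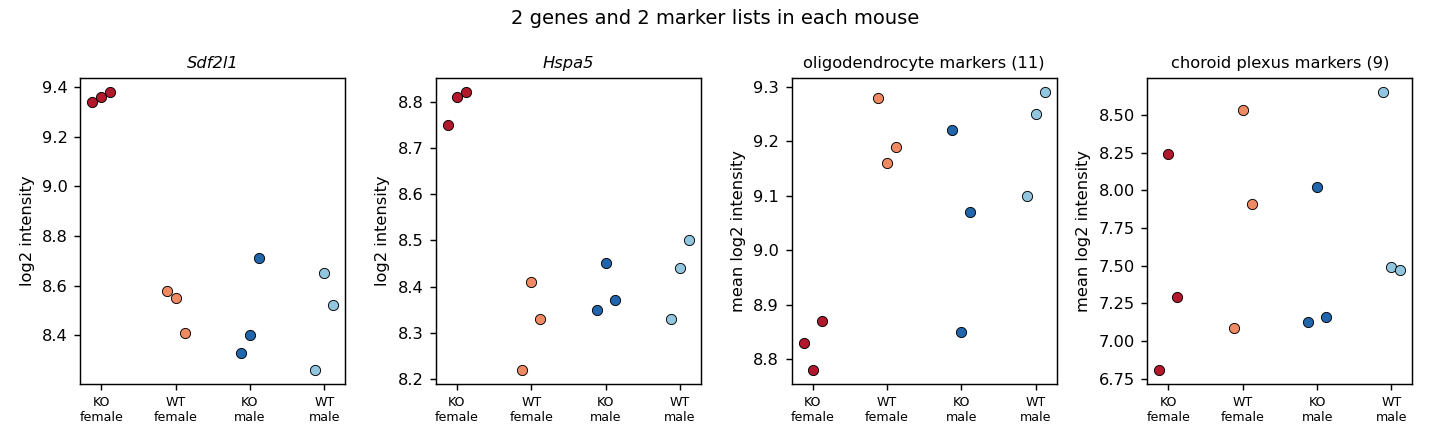
Sdf2l1, Hspa5 and the mean log2 intensity of 11 oligodendrocyte and 9 choroid plexus markers in each mouse, by group (KO_female, WT_female, KO_male, WT_male). Oligodendrocyte markers are low in the 3 KO females and in KO_male replicate 2, while Sdf2l1 and Hspa5 are high in KO females alone, and choroid plexus markers spread widely in every group.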

How the data were processed

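RMA values of the 12 arrays, summarised over core exons in Expression Console, were deposited per the labels. The submitters' processing notes list Affymetrix Expression Console and Transcriptome Analysis Console 3.0 without a role. The values the authors deposited are linear intensities, with array medians of 96.5 to 98.7. The planned tests had assumed a log2 scale, so each intensity was converted to log2, with no pseudocount, filter or further normalization. What test the authors used, and on which genome build, no source used here states. The number of arrays limits the precision.

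Of 41345 rows, GEO's platform annotation, which can be old, paired 23521 with 1 gene symbol, 1814 with several and 16010 with none. The brightest single-symbol row stood for each gene; Ero1l, Sec61b, Ssr1, Edem1 and Derl2 had several. Means of the 4 groups were fitted with limma 3.58.1 in R 4.3.3 (lmFit and eBayes, two-sided, Benjamini-Hochberg adjustment over 22180 genes, threshold 0.05). Adjusted p-values come from limma unless another test is named. Co-variation used all 1296 permutations within groups. Figures and tables were made with Python 3.11.15.

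All listed ER genes were described by role; of each further ER list, the 3 genes with the smallest p over both sexes were named, and of the cell lists those a result turns on. The ER genes whose values are given mouse by mouse were picked after their values were seen. The members and lists were chosen with earlier results of these data known. Of the 115 other ER genes 110 were tested, and of the 74 cell markers 67. Promoter windows came from RefSeq, assembly GRCm38.p6, matched by symbol for 32 of the 36 listed genes. The limma fit was tested on simulated data. A planned reading of protein ends was not run, as no protein sequences were used here. Alternatives tried were an intensity trend, genes above the median brightness only, a pseudocount of 16, quantile normalization, the mean of a gene's rows, array weights, marker covariates, an additive model, each sex alone and each array left out.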

Additional observations from a re-analysis of the deposited data

How the results depend on the processing

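Over the alternatives, 4287 single-gene values were recomputed for the 35 ER genes. Of these, 30 newly passed the threshold, 16 no longer passed it and 23 reversed. The other 4218 kept their side of it, smaller changes of sign included. A change of sign was counted as reversed where either fit had an unadjusted p under 0.05 or the value moved by over 1 SD within groups. In all 204 signs changed, most of them within the 4218. ER genes past the threshold in females numbered 1 in the reported fit, 7 with an intensity trend, 6 among genes above the median brightness, 3 with a pseudocount of 16, 0 with either the choroid plexus or the oligodendrocyte covariate and 0 to 2 with 1 array left out. With the intensity trend these 7 were Sdf2l1, Hspa5 (limma adjusted p = 0.00522), Creld2 (0.00683), Xbp1 (0.0124), Pdia6 (0.0222), Dnajb11 (0.0437) and Manf (0.044). Over both sexes they numbered 0 in the reported fit, 2 with the trend and 3 among the bright genes. For KO females against KO males they numbered 1 in the reported fit, 4 with the trend, 4 among the bright genes, 4 with the pseudocount, 2 after quantile normalization, 0 with the oligodendrocyte covariate and 0 to 2 with 1 array left out. The adjusted p of Sdf2l1 in females ran from 0.00118 to 0.503 over its alternatives, and for KO females against KO males from 0.000275 to 0.142. The oligodendrocyte covariate split the female groups without overlap, so its female fits cannot separate genotype from marker level. ER genes at an unadjusted p under 0.05 fell, with the oligodendrocyte covariate, to 8 against 15 over both sexes, to 10 against 16 in females and to 8 against 13 between KO sexes. In males they numbered 1, then 3 with the trend, 2 among the bright genes, 2 with the choroid plexus covariate, 2 with the oligodendrocyte covariate and 0 to 2 with 1 array left out; between WT sexes 1, then 0 after quantile normalization and 0 to 2 with 1 array left out.

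All genes past the threshold over both sexes numbered 5, then 18 with the trend, 14 among the bright genes, 3 with the choroid plexus covariate, 2 with the oligodendrocyte covariate, 3 in the additive model and 3 to 8 with 1 array left out. In females they numbered 5, then 26 with the trend, 16 among the bright genes, 8 with the pseudocount, 0 with the oligodendrocyte covariate and 3 to 7 with 1 array left out. In males they numbered 5, then 2 with the oligodendrocyte covariate, 2 in the male arrays alone and 2 to 4 with 1 array left out. For the difference of the genotype effects they numbered 0, then 2 with the trend, 2 among the bright genes, 1 with the pseudocount and 0 to 1 with 1 array left out. Between KO sexes they numbered 11, then 18 with the trend, 17 among the bright genes, 17 with the pseudocount, 6 with the oligodendrocyte covariate and 6 to 12 with 1 array left out. Between WT sexes they numbered 5, then 3 among the bright genes and 3 to 5 with 1 array left out.

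With the oligodendrocyte covariate, which was added after seeing the data, values reversed over both sexes for Canx (0.017), Ero1lb (0.11), Edem1 (0.051) and Atf4 (-0.028), in females for Canx (0.036), Edem1 (0.10), Eif2ak3 (0.16) and Atf4 (-0.12), and in males for Derl3 (0.15). They reversed for the difference of the genotype effects in Canx (0.039), Eif2ak3 (0.063), Ddit3 (-0.013) and Trib3 (-0.21), and between KO sexes in Derl1 (0.083), Eif2ak3 (0.095) and Trib3 (-0.15). With the mean of a gene's rows, Ssr1 reversed over both sexes (0.018), in males (0.043) and for the difference of the effects (-0.051), and Edem1 between WT sexes (0.013). With 1 array left out, Dnajb11 in males ran from -0.068 to 0.085, Manf in males from -0.039 to 0.11 and Manf between WT sexes from -0.008 to 0.15. The causes were not tested. With windows of the 250 bases before the start alone, ERSE was in 10 ER genes and 0.113% of promoters, ERSE-II in 1 and 0.0304%, the UPRE core in 1 and 1.65%, and the amino acid core in 1 and 3.45%. No paired analysis was possible because the labels give no replicate numbers that groups share. The dimmest ER gene averaged 6.60, against 3.95 to 5.39 for Y-linked genes in female arrays.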
